A study of Homo sapiens with 6 samples.

Results

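Protein arginine methyltransferases (PRMTs) are the enzymes that place methyl groups on arginine side chains, and their transcripts were followed here in 22Rv1 cells, an established human prostate carcinoma line, with and without knockdown of the chromatin reader ZMYND11. The set comprised the enzymes PRMT1, PRMT2, PRMT3, CARM1 (also called PRMT4), PRMT5, PRMT6, PRMT7, PRMT8 and PRMT9, together with WDR77, the obligate partner of PRMT5. These 10 genes were taken by symbol from the 35322 symbols of the count matrix. RNA was sequenced in 6 libraries. Of these, 2 came from control cells, whose genotype is given as WT, 2 from a first ZMYND11 knockdown (ZM11-kd1, hereafter kd1) and 2 from a second (ZM11-kd2, hereafter kd2). The labels give RPMI1640 medium with fetal bovine serum and no treatment for all cells. In the study's methods, knockdown lines were made by infection with shRNA lentivirus and selection with puromycin, and infected cells were then kept in a lower dose of it. Whether the control cells also received puromycin is not given for these libraries, so its presence and the knockdown cannot be told apart if they did not. A legend in the paper describes the sequenced cells as stable lines with shRNAs against ZMYND11 or with control shRNAs, which differs from the WT label of the controls, so whether the controls carried a vector is not settled. The sources used here do not settle which of the shRNAs was in kd1 and which in kd2, or whether libraries of 1 group came from separate cultures.

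Total counts ran from 26844128 to 38193748 per library. In control cells ZMYND11 was counted 4283 and 4179 times, and in the 4 knockdown libraries 770 to 941 times, a log2 fold change of -2.35 in kd1 and -2.64 in kd2. The luminal keratins KRT8 and KRT18, named here after their values were seen, had 4520 to 22865 counts per library. In each library the 4 basal epithelial markers summed to at most 0.234 CPM and the 4 endothelial markers to at most 0.196. The 5 leukocyte markers summed to 1.71 to 3.92 CPM, with the T cell gene CD3E at 0 throughout. The 5 fibroblast markers, most of their sum from COL1A1, were at 32.9 to 35.6 CPM in control, 86.4 to 87.2 in kd1 and 44.1 to 44.5 in kd2. What part these marker levels had in the results was not tested.

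PRMTs take the methyl group from S-adenosylmethionine and are grouped by their product. Type I enzymes make asymmetric dimethylarginine, type II enzymes make symmetric dimethylarginine, and the type III enzyme stops at monomethylarginine. The proteins they modify include histones, spliceosomal Sm proteins and RNA-binding proteins such as HNRNPA1, and the study concerns the binding of ZMYND11 to methylated HNRNPA1. PRMT5 works in a complex with WDR77, a WD-repeat protein that helps it to hold substrates. The question asked of these counts was whether the transcripts of the writers themselves differed when ZMYND11 was knocked down.

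Each partner of this complex is transcribed from a start site that faces another gene. PRMT5 lies on the minus strand of chromosome 14 (22920525 to 22929408, GRCh38), and its annotated start is separated from that of the noncoding gene PRMT5-DT by 198 bases. WDR77 lies on the minus strand of chromosome 1 (111439890 to 111449256), and 207 bases separate its start from that of the most upstream protein-coding transcript of ATP5PB, which encodes a subunit of mitochondrial ATP synthase. A transcript of ATP5PB with no defined coding sequence starts within WDR77. The stretches between the start sites are shown because both genes at each of them were measured in these libraries. They are from the RefSeq promoter table (GRCh38.p14) and read 5′ to 3′ on the strand of PRMT5 or WDR77. For PRMT5, the region is chr14:22929399-22929606 and runs 10 bases past the annotated start so that the last motif is whole, and capitals mark the CCAAT box, which reads ATTGG on this strand. For WDR77, the region is chr1:111449257-111449463, and capitals mark the palindrome TCGCGA.
PRMT5: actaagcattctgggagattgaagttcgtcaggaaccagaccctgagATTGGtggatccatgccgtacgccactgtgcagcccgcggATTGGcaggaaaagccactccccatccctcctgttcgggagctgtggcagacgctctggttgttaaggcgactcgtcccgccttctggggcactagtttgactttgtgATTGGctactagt
WDR77: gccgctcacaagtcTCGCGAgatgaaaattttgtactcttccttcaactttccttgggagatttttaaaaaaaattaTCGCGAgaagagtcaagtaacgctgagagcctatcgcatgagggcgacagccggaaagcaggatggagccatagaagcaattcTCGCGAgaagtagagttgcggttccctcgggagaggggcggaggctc

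The PRMT5 stretch holds 3 copies of ATTGG, and the WDR77 stretch 3 copies of TCGCGA. Over 35116 RefSeq promoters, read on both strands in the 250 bases before the start, at least 1 CCAAT box was found in 32.0% and at least 3 in 2.93%. At least 1 TCGCGA was found in 2.64% and at least 3 in 0.0171%, and among the members it was found only in front of WDR77. Both motifs were chosen after these stretches had been read. The E-box CACGTG, present in 6.34% of these promoters, was found among the members only in front of PRMT3. These matches describe the letters in the windows and were not tested as binding sites.

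The order of the family in control cells was led by PRMT1. Per kilobase of one canonical transcript, the control level of PRMT1, the main source of asymmetric dimethylarginine in most cells, was 197 ± 7.22 CPM per kb (SD, n = 2). PRMT2 followed at 21.4 ± 0.248 and PRMT6 at 19.7 ± 0.397 CPM per kb. CARM1 was at 15.6, PRMT5 at 11.6, PRMT3 at 10.5 and PRMT7 at 8.77 CPM per kb. WDR77, at 5.83 CPM per kb, lay below its partner PRMT5, and PRMT9 was the lowest of the detected genes at 4.02. In control, the 2 libraries of each gene did not overlap those of the next gene in this order. The order depends on the length used. Without division by length, PRMT2, CARM1 and PRMT6 were at 50.4, 51.3 and 51.5 CPM in control, and their libraries overlapped. The union of exons is 7603 bases for PRMT2 and 13884 for PRMT7, where the canonical transcripts have 2354 and 3738. The members lie on several chromosomes (PRMT1 and CARM1 on 19, PRMT6 and WDR77 on 1, PRMT2 on 21, PRMT3 on 11, PRMT5 on 14, PRMT7 on 16, PRMT8 on 12 and PRMT9 on 4). PRMT8, known from the nervous system, had 0 counts in all 6 libraries and could not be tested. The other 9 members passed the filter on low counts.

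Most genes differed between these libraries, which sets the scale for the members. An edgeR quasi-likelihood fit called genes at a Benjamini-Hochberg adjusted p under 0.05 over 16510 genes. In kd1, 9 of the 9 tested members were called against control, 5 higher and 4 lower, where 78.0% of all genes were called (38.2% higher and 39.8% lower). In kd2, 5 of 9 were called, 4 higher and 1 lower, where 73.4% of all genes were called (36.5% higher and 36.9% lower). Between the knockdowns, 8 of 9 were called, 3 higher and 5 lower in kd2 than in kd1, where 68.8% of all genes were called (34.9% higher and 33.8% lower). With so many genes called, the counts of members are near the background, and the description rests on which members moved, in which direction and by how much. The median log2 fold change of the members was 0.24 in kd1 and 0.09 in kd2, beside -0.03 over all genes in each. The median size of the change over all genes was 0.87 in kd1 and 0.68 in kd2 on the log2 scale. Both comparisons use the same 2 control libraries. In bulk RNA, less of a transcript per cell and fewer cells that carry it cannot be told apart.

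**Figure D1:**
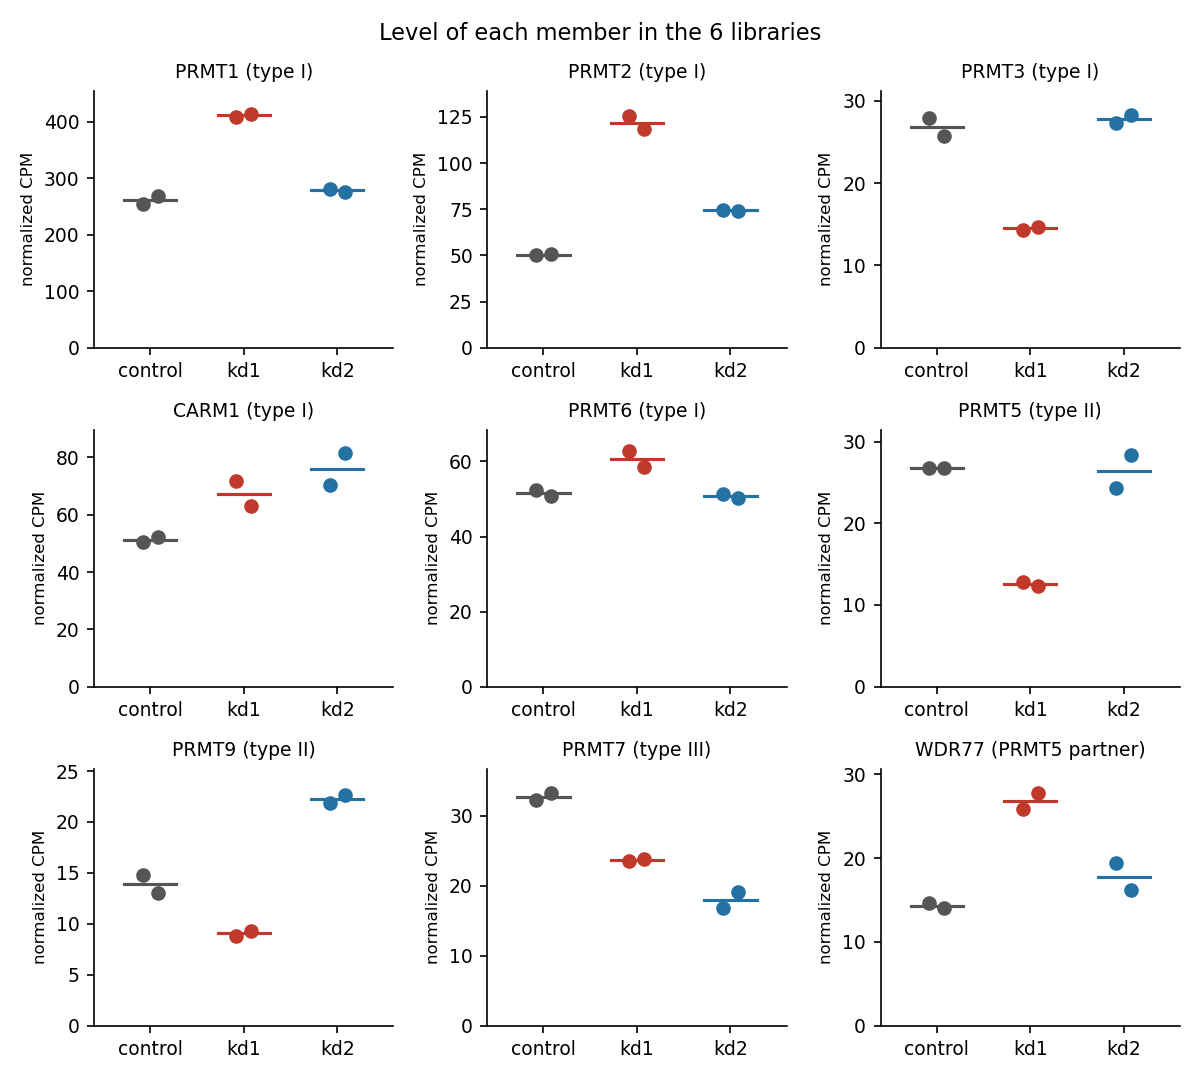
Normalized CPM (y axis, from 0 in each panel) of the 9 detected members in the 2 control, 2 kd1 and 2 kd2 libraries. Points are libraries and lines are group means. PRMT5 and PRMT3 are low only in the kd1 libraries among those measured, PRMT9 is low in kd1 and high in kd2, and PRMT2 is higher than control in all 4 knockdown libraries.

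Among the members, 3 patterns appeared. Called in the same direction in both knockdowns were 4 members (PRMT2, CARM1, PRMT7 and WDR77), a pattern of 52.6% of all genes. Called in kd1 and between the knockdowns, but not in kd2 against control, were another 4 (PRMT1, PRMT3, PRMT5 and PRMT6), a pattern held by 13.7% of all genes. PRMT9 was called in opposite directions, as 9.10% of all genes were.

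Of the type I enzymes, PRMT2 was higher in both knockdowns. PRMT2 is a weakly active, SH3-domain enzyme that acts as a coactivator of nuclear receptors. Its normalized CPM was 50.0 and 50.8 in control, 125 and 119 in kd1, and 74.6 and 74.2 in kd2. The 3 groups did not overlap, with kd2 between control and kd1. PRMT2 rose 2.42-fold in kd1 (log2 fold change 1.27, SE 0.06, edgeR adjusted p = 5.42e-11) and 1.48-fold in kd2 (0.56, SE 0.06, adjusted p = 6.76e-07). In kd2 it was lower than in kd1 by a log2 fold change of -0.71 (SE 0.06, edgeR adjusted p = 4.31e-08).

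PRMT1 was higher in kd1 and near control in kd2. Its normalized CPM was 255 and 269 in control, 409 and 414 in kd1, and 281 and 277 in kd2. The kd1 libraries stood apart from the others, while both kd2 libraries lay above the higher control library by less than the distance between the control libraries. The log2 fold change was 0.65 in kd1 (SE 0.05, edgeR adjusted p = 1.96e-08) and 0.09 in kd2 (SE 0.05, adjusted p = 0.123). The rise in kd1 was not called after a correction for GC content and length taken from one transcript per gene, at -0.07 (adjusted p = 0.152), and was 0.42 when all exons were used. Between the knockdowns the value of -0.56 (edgeR adjusted p = 1.78e-07) was likewise lost with one transcript per gene, at 0.07 (adjusted p = 0.185). The kd2 value was called with the all-exon correction, at 0.12 (edgeR adjusted p = 0.0423), and without kd2 replicate 2, at 0.11 (adjusted p = 0.0367). Exons of PRMT1 share 171 bases, 3.6% of their length, with the noncoding gene ENSG00000268677 on the opposite strand, which was not analysed here.

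PRMT3, a cytosolic enzyme whose best known substrate is the ribosomal protein RPS2, fell in kd1 only among the 2 knockdowns tested. It had 27.9 and 25.8 normalized CPM in control, 14.3 and 14.7 in kd1, and 27.3 and 28.3 in kd2. Both kd1 libraries were below all others, and the kd2 libraries overlapped the controls. The log2 fold change was -0.89 in kd1 (SE 0.09, edgeR adjusted p = 2.52e-07), 0.05 in kd2 (SE 0.08, adjusted p = 0.613), and 0.94 in kd2 against kd1 (SE 0.09, adjusted p = 2.18e-07).

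CARM1, a histone methyltransferase and coactivator of nuclear receptors, was higher in both knockdowns as fitted, but under all alternatives tried in kd2 alone. The normalized CPM of CARM1 was 50.6 and 52.1 in control, 71.7 and 63.0 in kd1, and 70.6 and 81.6 in kd2. All 4 knockdown libraries lay above both controls, and the kd1 and kd2 libraries overlapped. CARM1 rose by 0.57 on the log2 scale in kd2 (SE 0.08, edgeR adjusted p = 1.55e-05) and by 0.39 in kd1 (SE 0.08, adjusted p = 0.000436). The kd1 call was lost with library totals alone, at 0.04 (adjusted p = 0.692), and after both corrections for GC content and length, at -0.03 (adjusted p = 0.754) with all exons and 0.06 (adjusted p = 0.450) with one transcript. The difference between the knockdowns was 0.17 (SE 0.08, edgeR adjusted p = 0.0619), and it was called in 4 of 9 alternatives, with values up to 0.58, and without kd1 replicate 1 or kd2 replicate 1, at 0.27 in each. It was 0.09 without kd1 replicate 2 (adjusted p = 0.445) and 0.07 without kd2 replicate 2 (adjusted p = 0.381). Exons of CARM1 share 891 bases, 20.2% of their length, with YIPF2 on the opposite strand. How the counting used strand is not given in the sources used here, so reads in the shared bases cannot be assigned to either gene. YIPF2 rose by 0.92 on the log2 scale in kd1 (SE 0.07, edgeR adjusted p = 1.17e-08) and was at -0.01 in kd2 (SE 0.07, adjusted p = 0.902), and its part in the CARM1 values was not tested.

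PRMT6, a nuclear enzyme that methylates histone H3, was higher in kd1 as fitted and near control in kd2. Its 2 control libraries were at 52.3 and 50.8 normalized CPM, those of kd1 at 62.8 and 58.5, and those of kd2 at 51.4 and 50.2. The kd1 libraries were above the rest and the kd2 libraries overlapped the controls. The log2 fold change was 0.24 in kd1 (SE 0.06, edgeR adjusted p = 0.00396) and -0.02 in kd2 (SE 0.06, adjusted p = 0.772). With library totals alone the kd1 value was -0.12 (adjusted p = 0.122), and the kd2 value was called lower, at -0.19 (adjusted p = 0.0196). The call was also lost without control replicate 2, at 0.21 (adjusted p = 0.0509), and without kd1 replicate 1, at 0.19 (adjusted p = 0.0655). PRMT6 was lower in kd2 than in kd1 by -0.26 (SE 0.06, edgeR adjusted p = 0.00247), which was lost with library totals alone, at -0.07 (adjusted p = 0.347), and without kd1 replicate 1, at -0.20 (adjusted p = 0.0534).

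The type II enzymes, which make symmetric dimethylarginine, are PRMT5 and PRMT9. PRMT5, the main enzyme of the group and a modifier of histones, Sm proteins and HNRNPA1, had 813 and 832 counts in control, 436 and 365 in kd1, and 871 and 971 in kd2. On the normalized scale these were 26.7 and 26.8 CPM in control, 12.8 and 12.3 in kd1, and 24.4 and 28.3 in kd2. The kd1 libraries were below every other library, and the 2 kd2 libraries lay on either side of the controls. PRMT5 fell in kd1, to 0.471 of control (log2 fold change -1.09, SE 0.10, edgeR adjusted p = 8.55e-08). In kd2 its log2 fold change was -0.02 (SE 0.09, edgeR adjusted p = 0.837), with a 95% interval from -0.21 to 0.17. PRMT5 was 2.09-fold higher in kd2 than in kd1 (log2 fold change 1.07, SE 0.10, edgeR adjusted p = 1.75e-07). Exons of PRMT5 share 924 bases, 28.2% of their length, with the antisense gene PRMT5-AS1. Since the use of strand in counting is not given, reads in the shared bases cannot be assigned to either gene. PRMT5-AS1 had 1 to 20 counts per library and fell in both knockdowns, by 2.87 in kd1 (SE 0.73, edgeR adjusted p = 0.00247) and by 1.67 in kd2 (SE 0.61, adjusted p = 0.0236). Its part in the PRMT5 values was not tested.

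PRMT9, which methylates the splicing factor SF3B2, was lower in kd1 and higher in kd2. It had 451 and 404 counts in control, 300 and 275 in kd1, and 782 and 777 in kd2. The groups were apart, in the order kd1, control, kd2. The log2 fold change was -0.62 in kd1 (SE 0.11, edgeR adjusted p = 0.000110) and 0.68 in kd2 (SE 0.10, adjusted p = 2.38e-05). Between the knockdowns the difference was 1.30 (SE 0.10, edgeR adjusted p = 5.12e-08), or 2.46-fold.

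WDR77, also named MEP50, moved opposite to PRMT5 in kd1. It had 444 and 436 counts in control, 877 and 821 in kd1, and 694 and 554 in kd2. The kd1 libraries were the highest, and all 4 knockdown libraries lay above the controls on the normalized scale. WDR77 rose 1.87-fold in kd1 (log2 fold change 0.90, SE 0.10, edgeR adjusted p = 1.34e-06) and 1.24-fold in kd2 (0.32, SE 0.10, adjusted p = 0.0142). Between the knockdowns it differed by -0.59 (SE 0.10, edgeR adjusted p = 0.000106). The kd2 call was lost with library totals alone, at 0.14 (adjusted p = 0.222), after the all-exon correction for GC content and length, at 0.18 (adjusted p = 0.105), without control replicate 2, at 0.29 (adjusted p = 0.0834), and without kd2 replicate 1, at 0.17 (adjusted p = 0.16). Exons of WDR77 share 90 bases, 3.4% of their length, with ATP5PB on the opposite strand, and 673 bases, 25.1%, with the noncoding gene ENSG00000243960 on the same strand, which was not analysed here. ATP5PB had 6147 to 12802 counts per library.

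**Figure D2:**
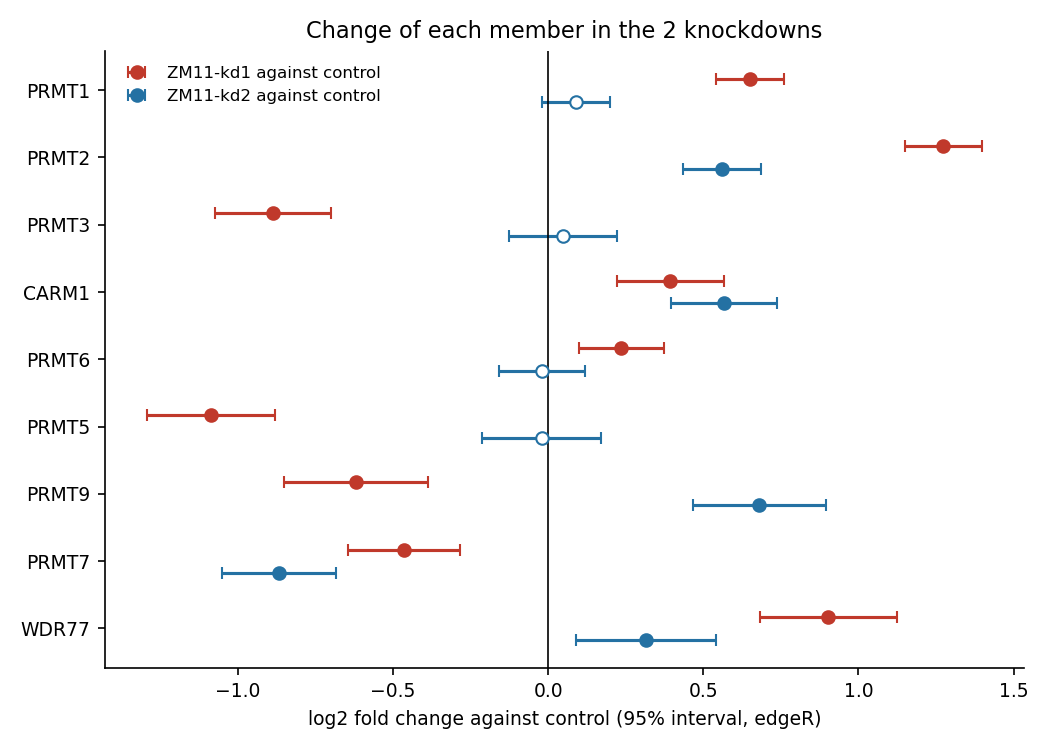
Log2 fold change against control (x axis) of each member in kd1 (red) and kd2 (blue), with 95% intervals from the edgeR fit. Filled circles passed an adjusted p of 0.05 and open circles did not. PRMT1, PRMT3, PRMT5 and PRMT6 have open circles near 0 in kd2, and PRMT9 lies on opposite sides of 0.

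The balance of the complex was read within each library, where no scaling between libraries enters. The ratio of PRMT5 to WDR77 counts was 1.83 and 1.91 in control, 0.497 and 0.445 in kd1, and 1.26 and 1.75 in kd2. All 4 knockdown libraries were below both controls, and PRMT5 was the less abundant of the pair in read counts only in the 2 kd1 libraries of these 6. The mean log2 ratio was 0.90 ± 0.04 in control, -1.09 ± 0.11 in kd1 and 0.57 ± 0.34 in kd2 (SD, n = 2 each). An exact two-sided permutation test of 2 control against 4 knockdown libraries gave p = 0.133, the smallest that this design allows. This p-value only restates that all 4 knockdown libraries lay on one side of both controls. The test also pools kd1 and kd2, whose mean log2 ratios were far apart, so no conclusion is drawn from it.

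**Figure D3:**
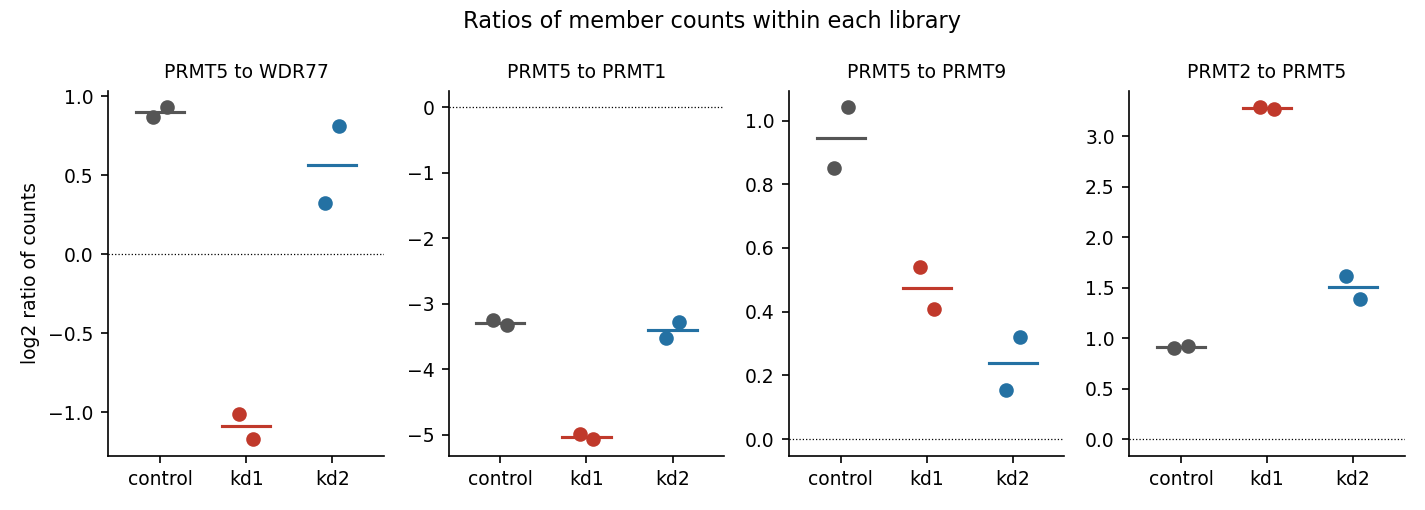
Log2 ratio of raw counts within each library (y axis, a scale of its own in each panel) for 4 pairs of members. Points are libraries, lines are group means, and the dotted line marks equal counts where it falls in the panel. The kd1 libraries stand apart from the others for PRMT5 to WDR77, PRMT5 to PRMT1 and PRMT2 to PRMT5.

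Against the type I enzyme PRMT2, the shift was wider still. PRMT2 had 1.87 and 1.90 counts per PRMT5 count in control, 9.76 and 9.62 in kd1, and 3.06 and 2.62 in kd2. The ratio of PRMT5 to PRMT9, the pair that makes symmetric dimethylarginine, was 1.80 and 2.06 in control, 1.45 and 1.33 in kd1, and 1.11 and 1.25 in kd2. Each of these ratios was on one side of both controls in all 4 knockdown libraries. The exact two-sided permutation p was 0.133 for each, the smallest possible, which only restates this order. A total of 4 such ratios was computed. The ratio of PRMT5 to PRMT1 was 0.105 and 0.0996 in control, 0.0314 and 0.0298 in kd1, and 0.0866 and 0.102 in kd2. Both kd1 libraries were below both controls, and the kd2 libraries overlapped them. Pooled over all 4 knockdown libraries, the exact two-sided permutation p was 0.267, which does not address kd1 or kd2 separately.

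The genes that face PRMT5 and WDR77 across the stretches printed above were measured in the same fit. PRMT5-DT had 75 and 67 counts in control, 18 and 17 in kd1, and 23 and 42 in kd2. It fell in both knockdowns, by 2.06 on the log2 scale in kd1 (SE 0.37, edgeR adjusted p = 0.000144) and by 1.31 in kd2 (SE 0.34, adjusted p = 0.00300), whereas PRMT5 was called only in kd1 of the 2. ATP5PB rose in both, by 0.92 in kd1 (SE 0.06, edgeR adjusted p = 3.13e-09) and by 0.59 in kd2 (SE 0.06, adjusted p = 5.78e-07), the same directions as WDR77, and the part of the reads in their shared exon bases was not tested. PRMT7 faces SLC7A6OS, whose start lies 4 bases away. SLC7A6OS fell by 0.73 in kd1 (SE 0.21, edgeR adjusted p = 0.00529) and was at -0.18 in kd2 (SE 0.20, adjusted p = 0.429). These partners were chosen for their position and their agreement with the members was not tested.

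PRMT7, the type III enzyme, was lower in both knockdowns. Its normalized CPM was 32.3 and 33.2 in control, 23.6 and 23.9 in kd1, and 16.8 and 19.1 in kd2. The groups did not overlap and kd2 was the lowest. PRMT7 fell by 0.46 on the log2 scale in kd1 (SE 0.08, edgeR adjusted p = 0.000150) and by 0.87 in kd2 (SE 0.09, adjusted p = 3.73e-07), and it was lower in kd2 than in kd1 by -0.40 (SE 0.09, adjusted p = 0.000846). After the all-exon correction for GC content and length the kd1 value was -0.18 (edgeR adjusted p = 0.0473). Exons of PRMT7 share 1931 bases, 13.9% of their length, with SMPD3 on the opposite strand. SMPD3 also fell, by 1.67 in kd1 (SE 0.09, edgeR adjusted p = 3.23e-10) and by 0.43 in kd2 (SE 0.08, adjusted p = 0.000295), and its part in the PRMT7 values was not tested.

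By product, the make-up of the enzyme transcripts was compared as shares of summed counts per kilobase within each library. Type I enzymes held 91.6% of the enzyme total in control, 96.6% in kd1 and 92.9% in kd2 (means of 2 libraries). The type II share was 5.59% and 5.24% in control, 1.90% in each kd1 library, and 5.34% and 5.92% in kd2. It was lower in kd1 than in any other library, and kd2 overlapped control. The type III share, which is PRMT7, was 3.04% and 3.03% in control, 1.48% and 1.51% in kd1, and 1.42% and 1.60% in kd2. All 4 knockdown libraries were below the controls. A share also moves with the total, most of which is PRMT1, at 197 CPM per kb in control, 310 in kd1 and 210 in kd2. The level of PRMT7 itself was 0.725 of control in kd1 and 0.548 in kd2. Shares after the corrections for GC content and length are not given here. Without division by length the mean type II share was 7.89%, 3.0% and 8.46% in control, kd1 and kd2, and the mean type III share 6.35%, 3.29% and 3.12%. With the union of all exons as length, the mean type II share was 11.3%, 4.33% and 11.7%, and the mean type III share 2.28%, 1.21% and 1.11%.

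Counting WDR77 in the total, 4 members had a share on one side of both controls in all 4 knockdown libraries. This count has no counterpart over all genes, since a share is taken within the family. Of all genes, 52.6% were called in the same direction in both knockdowns. A share also moves with the family total, so it can fall where the level of the member did not. The share of PRMT2 was higher, at 7.27% in control, 11.9% in kd1 and 9.72% in kd2, and those of PRMT5, PRMT6 and PRMT7 were lower. For PRMT6, whose level was called higher in kd1, the share was 6.67% in control, 5.30% in kd1 and 5.96% in kd2. Each gave an exact two-sided permutation p of 0.133, the smallest the design allows, over 9 members compared. This p-value pools both knockdowns and only restates that the share lay on one side of both controls, so no conclusion is drawn from it. The family total itself was 290 and 299 CPM per kb in control, 437 and 435 in kd1, and 325 in each kd2 library. PRMT1 alone held 66.9% of it in control.

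Members differed in how far their values depended on scaling. Library totals alone moved the median of all genes to -0.38 in kd1 and -0.20 in kd2 on the log2 scale. With any of 9 alternatives, the calls of PRMT2, PRMT7 and PRMT9 in both knockdowns, of PRMT3, PRMT5 and WDR77 in kd1 and of CARM1 in kd2 kept their direction and passed the threshold. The kd1 value of PRMT5 ran from -1.44 to -1.08 over these alternatives, while the kd2 value of PRMT2 ran from 0.39 to 0.71. The kd1 value of PRMT9 ran from -0.97 to -0.33, that of PRMT3 from -1.24 to -0.54, and that of WDR77 from 0.55 to 0.91. For PRMT7 the kd2 value ran from -1.04 to -0.50.

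**Figure D4:**
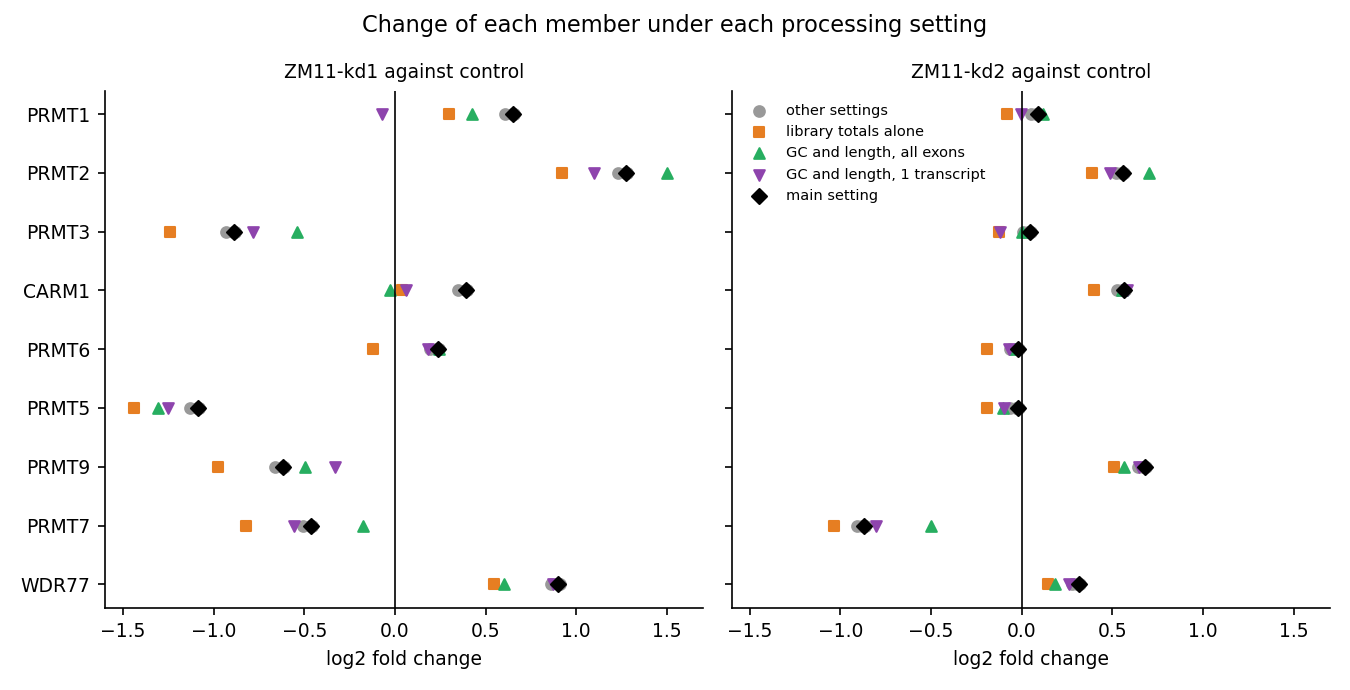
Log2 fold change against control (x axis) of each member in kd1 (left) and kd2 (right) under the main setting (black diamonds) and 9 alternatives. Orange squares are library totals alone, green and purple triangles are corrections for GC content and length, and grey circles are the other settings. PRMT1, CARM1 and PRMT6 cross 0 in kd1, and PRMT5 and PRMT2 stay on their side.

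The adaptors that bring substrates to PRMT5 were read next. All 3 were called higher in kd2, where 36.5% of all genes were, and 2 of 3 in kd1, where 38.2% were. COPRS, which directs PRMT5 to histones, had 1145 and 1328 counts in control, 4811 and 4389 in kd1, and 2538 and 2052 in kd2. Both knockdowns lay above the controls. It rose by 1.85 on the log2 scale in kd1 (SE 0.08, edgeR adjusted p = 4.52e-11) and by 0.70 in kd2 (SE 0.08, adjusted p = 2.69e-06). CLNS1A, the adaptor for Sm proteins, rose by 0.87 in kd1 (SE 0.06, edgeR adjusted p = 1.02e-08) and 0.29 in kd2 (SE 0.06, adjusted p = 0.000999). With library totals alone the kd2 value of CLNS1A was 0.12 (edgeR adjusted p = 0.0908). RIOK1, a kinase that competes with CLNS1A for PRMT5, was at 0.02 in kd1 (SE 0.07, edgeR adjusted p = 0.773) and rose by 0.40 in kd2 (SE 0.07, adjusted p = 7.90e-05). In kd1 its value with library totals alone was -0.33 (edgeR adjusted p = 0.000497). In kd1, COPRS, CLNS1A and WDR77 were therefore called higher while PRMT5 was called lower.

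Of 6 other regulators and coactivator partners of PRMTs, 2 were called higher and 4 lower in kd1, where 78.0% of all genes were called either way, and 2 higher and 2 lower in kd2, where 73.4% were. BTG2, an antiproliferative protein that binds PRMT1, rose by 0.89 in kd1 (SE 0.07, edgeR adjusted p = 3.03e-08) and by 1.25 in kd2 (SE 0.07, adjusted p = 9.90e-10). EPB41L3, a membrane skeleton protein that binds PRMT3 and PRMT5, had 9 and 21 counts in control, 0 and 3 in kd1, and 17 and 7 in kd2. With so few counts the fitted log2 value in kd1, -3.26 (SE 0.97, edgeR adjusted p = 0.00715), is not a measured fold. It was -7.02 without kd1 replicate 2, which leaves kd1 with the library of 0 counts, and the call was lost without control replicate 2, at -2.54 (adjusted p = 0.103), or without kd1 replicate 1, at -2.22 (adjusted p = 0.0754).

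The methyl donor cycle, which makes and recycles S-adenosylmethionine, had 4 of 10 genes higher and 5 lower in kd1, and 2 higher and 6 lower in kd2, near the 78.0% and 73.4% of all genes called. The median log2 fold change of the list was -0.17 in kd1 and -0.44 in kd2. MTR, methionine synthase, fell by 1.51 in kd1 (SE 0.08, edgeR adjusted p = 1.81e-10) and by 0.76 in kd2 (SE 0.07, adjusted p = 3.30e-07).

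Readers of methylarginine carry Tudor domains, and 4 of 5 listed genes were tested, since SMN1 had at most 1 count in any library. SMN1 has a nearly identical copy, so its reads may have been set aside or given to that copy. In each knockdown 3 readers were called higher and 1 lower, beside 78.0% of all genes called in kd1 and 73.4% in kd2. SMNDC1, a splicing factor, rose by 0.75 in kd1 (SE 0.06, edgeR adjusted p = 2.99e-08) and by 0.92 in kd2 (SE 0.06, adjusted p = 4.26e-09). TDRKH, which acts in piRNA maturation, was at -0.55 in kd1 (SE 0.11, edgeR adjusted p = 0.000343) and 0.37 in kd2 (SE 0.10, adjusted p = 0.00440). With library totals alone the kd2 value of TDRKH was 0.20 (edgeR adjusted p = 0.102).

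Of 5 genes for the breakdown of methylarginine or the conversion of arginine, 3 were tested, and PADI2 and PADI4 had at most 12 counts. In kd1, 2 were called higher and 1 lower (78.0% of all genes called), and in kd2, 1 higher and 1 lower (73.4%). JMJD6, a hydroxylase for which arginine demethylation has been proposed, had 1124 and 1201 counts in control, 3847 and 3424 in kd1, and 5558 and 4675 in kd2. It rose by 1.60 in kd1 (SE 0.07, edgeR adjusted p = 3.49e-11) and by 1.95 in kd2 (SE 0.07, adjusted p = 8.80e-12). DDAH1, which degrades free asymmetric dimethylarginine, fell by 1.15 in kd1 (SE 0.06, edgeR adjusted p = 9.88e-11) and by 0.87 in kd2 (SE 0.05, adjusted p = 2.93e-09).

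Among 20 substrates of PRMTs, 10 were called higher and 10 lower in kd1, where 78.0% of all genes were called, and 8 higher and 6 lower in kd2, close to the 73.4% of all genes called there. The median log2 fold change was 0.05 in kd1 and 0.03 in kd2. SNRPB, an Sm protein of the spliceosome and a substrate of PRMT5, rose by 1.45 in kd1 (SE 0.09, edgeR adjusted p = 1.20e-09) and by 1.05 in kd2 (SE 0.09, adjusted p = 5.99e-08). MED12, a Mediator subunit methylated by CARM1, fell by 2.42 in kd1 (SE 0.12, edgeR adjusted p = 1.32e-10) and by 0.91 in kd2 (SE 0.11, adjusted p = 2.43e-06). HNRNPA1, the substrate at the centre of the study, had 49290 and 51480 counts in control, 24405 and 21819 in kd1, and 31705 and 27922 in kd2. It fell by 1.17 in kd1 (SE 0.05, edgeR adjusted p = 6.37e-11) and by 0.94 in kd2 (SE 0.05, adjusted p = 9.99e-10). HNRNPA1 has many processed pseudogenes, and how the counting treated reads that fit several places is not given in the sources used here.

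The genes whose log2 CPM over the 6 libraries was most like that of PRMT5 were MAPK6, ZNF670 and NIPAL3, with Pearson's r of 1.00 for each after rounding. For PRMT1 they were BEX4, NIT1 and ING4. With 3 groups of 2 libraries many genes share a pattern, and 1045 genes had r above 0.95 with PRMT5 and 1241 with PRMT1. Between the 2 enzymes r was -0.99. These correlations over 6 libraries share the same libraries and depth and are given as a description.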

How the data were processed

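RNA of 22Rv1 cells was measured in 6 libraries, grouped by their labels. The authors checked reads with FastQC 0.11.9, trimmed adapters, and aligned to hg38 with STAR 2.7.9a. HTSeq 0.13.5 is named in the submitters' processing notes without a stated role. Each deposited value is a raw read count for 1 gene symbol. The annotation, the strand setting and the treatment of reads that fit several places are not given in the sources used here, nor whether poly(A) isolation or rRNA removal was used for these libraries. Total counts of 26844128 to 38193748 set the precision of low counts.

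The test was edgeR 4.0.16 under R 4.3.3 (TMM, filterByExpr, quasi-likelihood without robust estimation) in one fit of the 3 groups with 3 residual degrees of freedom, leaving 16510 genes. Standard errors are the size of the log2 fold change over the square root of F. The p-values measure the spread between libraries whose origin is not stated, which may be technical. Of the 35322 symbols, 32852 matched GENCODE 44 by name and 243 by an older symbol. Levels per kb use one canonical transcript per gene.

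The members, lists, markers and motifs were chosen with earlier results of these data known. Named genes are all members, and from each list the tested genes with the highest and lowest mean change over both knockdowns (all of a list of 3), HNRNPA1, and the 3 genes most like PRMT5 and PRMT1. Some genes that the rule or the marker lists select are not reported here. Genes facing or overlapping a member were added for their position. Promoters were also searched for GGGCGG and TTTCCCGC, which can overlap, and for TTTGGCGC. GGGCGG was found in 42.6% of promoters, TTTCCCGC in 1.39% and TTTGGCGC in 0.550%.

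The alternatives were DESeq2 size factors, the DESeq2 1.42.0 Wald test, library totals alone, a fit of only the groups compared, a replicate block, a stricter filter of 10 counts in every library, no filter, a lowess correction (span 0.3) for GC content and length, and each library left out in turn. The correction with one transcript per gene, and exon unions for shares, were chosen after seeing the data. The functions were tested on simulated counts. Figures were drawn with matplotlib 3.10.9.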

Additional observations from a re-analysis of the deposited data

Results flagged for a closer look

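Of the 9 members tested, 8 differed between the knockdowns by edgeR's test of kd2 against kd1, where 68.8% of all genes did. PRMT9 (log2 fold change 1.30), PRMT5 (1.07) and PRMT3 (0.94) were higher in kd2. PRMT2 (-0.71), WDR77 (-0.59), PRMT1 (-0.56), PRMT7 (-0.40) and PRMT6 (-0.26) were lower in kd2. For each of these the 2 kd2 libraries lay on one side of the 2 kd1 libraries. ZMYND11 itself was lower in kd2 than in kd1 by -0.28 (SE 0.07, edgeR adjusted p = 0.00265), and at -0.10 (adjusted p = 0.259) with library totals alone. Against control, log2 fold changes followed GC content with a Spearman correlation over genes of 0.199 in kd1 and -0.026 in kd2, and exon length with -0.286 and -0.132. For kd2 against kd1 the correlation was -0.304 with GC content and 0.241 with exon length. What part these trends had in the differences between the knockdowns was not tested beyond the corrections reported for each member.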

How the results depend on the processing

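Over the 9 tested members, 3 comparisons and 15 alternatives, 375 values kept their direction and side of the threshold, 14 lost a call, 4 of them with a reversed direction, and 9 gained one. A total of 11 reversed direction, counting values that were never called. The number of members called ran from 7 to 9 in kd1, from 4 to 6 in kd2 and from 8 to 9 between the knockdowns. The number of genes called stayed within 1.5 times the main count. The cause of the changes was not tested. Reversed with one transcript per gene were PRMT1 in kd1 (-0.071), in kd2 (-0.0032) and between the knockdowns (0.068), PRMT3 in kd2 (-0.119) and, between the knockdowns, SMNDC1 (-0.333), DDAH1 (-0.013), SNRPB (0.309) and HNRNPA1 (-0.062). With the all-exon correction, CARM1 in kd1 (-0.028), RIOK1 in kd1 (-0.061), and SMNDC1 (-0.123) and HNRNPA1 (-0.040) between the knockdowns reversed. With library totals alone, PRMT6 in kd1 (-0.119), RIOK1 in kd1 (-0.332), PRMT1 in kd2 (-0.080) and PRMT3 in kd2 (-0.123) did so. RIOK1 in kd1 was at -0.022 with at least 10 counts in every library, and with 1 library left out it ran from -0.048 to 0.092. In kd2, leaving out 1 library gave values from -0.0078 to 0.105 for PRMT3, with the reversal without control replicate 2. It gave values from -0.129 to 0.081 for PRMT5, which reversed without kd2 replicate 1, from -0.041 to 0.00067 for PRMT6, which reversed without kd2 replicate 2, and from -1.24 to 0.206 for EPB41L3, which reversed without control replicate 2.

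Libraries with the same replicate number did not deviate together, with correlations of 0.0062, -0.026 and -0.044 between groups over 16510 genes. A fit with the replicate number as a block called 9 members in kd1, 5 in kd2 and 8 between the knockdowns, as without it, and 12545, 11688 and 10978 genes. Pooled over both knockdowns, whose mean log2 ratios of PRMT5 to WDR77 were far apart (-1.09 in kd1 and 0.57 in kd2, beside 0.90 in control), the difference from control was -1.16, and -1.10 after the correction for GC content and length. Without 1 library it ran from -1.52 to -0.86. The number of members with a one-sided share ran from 4 to 6 with 1 library left out, and was 5 without division by length and 5 with exon unions. With 2 libraries a group, no exact test over libraries could pass 0.05, and members with few counts, such as PRMT9 and WDR77, have the widest errors.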
